A study of Mus musculus with 8 samples.

Results

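The matricellular genes examined here are the 4 thrombospondins Thbs1, Thbs2, Thbs3 and Thbs4 together with Sparc, Postn, Tnc, Ccn1, Ccn2 and Tgfbi. They were taken as a list of 10 named genes, each represented by its probe set with 1 gene symbol and, where a gene had several, by the one with the highest mean over all arrays. All 10 were found among the 22180 genes so represented, and all 10 lay among the 14787 genes kept after the dimmest 33.3% were left out, so no member was lost to the filter. Each had 1 probe set except Ccn2, which had 2.

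Expression was profiled in the left epididymal fat pad, a white adipose depot, of male C57BL/6 mice at 10 weeks of age. Every mouse had eaten a diet rich in fat of the n-6 kind since weaning at 3 weeks, fat supplying 45% of its energy, so both groups share this diet and no lean group is part of the comparison. The treated group (GC+, n = 4 mice) received the glucocorticoid prednisolone at a labelled dose of 40 mg per kg per square metre in sweet potato puree every day for 4 weeks from 6 weeks of age, and the control group (GC-, n = 4 mice) received puree alone. One Affymetrix array was run per mouse, on whole tissue, and values are on the log2 scale, so a difference of 1 is a doubling. Mice are numbered as in their labels, and the comparison asks how these genes differ with chronic prednisolone under this diet.

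Matricellular proteins are secreted into the extracellular matrix and act on how cells attach, migrate and receive growth factors, without being main building blocks of the matrix. Thrombospondins bind receptors such as CD36 and CD47 as well as integrins, and thrombospondin 1 can release active TGF-beta from its latent complex. In adipose tissue these proteins are known for their part in matrix remodelling, vessel growth and fibrosis when fat expands. In whole tissue, fewer cells of a type and less RNA per cell cannot be told apart.

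All 10 matricellular genes averaged higher in prednisolone than in vehicle mice, but none passed the test over all genes. In limma, 0 of 10 members had an adjusted p under 0.05, and 0 of 14787 tested genes did (0% called). At an unadjusted p under 0.05, 2 of 10 were higher with prednisolone, Thbs1 and Ccn1, where 3.37% of all tested genes were. Of all tested genes, 54.6% averaged higher with prednisolone. The median difference of the members was 0.27, against 0.02 for all tested genes. The lowest value of every member was in the same animal, vehicle mouse 1, which held the lowest value of 23.7% of all tested genes and the highest of 19.3%. Without that mouse, 8 of 10 members averaged higher and 2 lower, their median difference was 0.15, and Thbs1 alone had an unadjusted p under 0.05. When other mice were left out singly, that last count was 0 without prednisolone mouse 3 or 4 and 1 without vehicle mouse 2. It was 2 without prednisolone mouse 1 or vehicle mouse 4, 3 without prednisolone mouse 2 and 5 without vehicle mouse 3. Among all tested genes, the share higher at that threshold was 2.2% without vehicle mouse 1. Without prednisolone mice 1 to 4 in turn it was 2.7%, 4.8%, 2.3% and 2.1%. Without vehicle mice 2, 3 and 4 in turn it was 5.8%, 4.8% and 1.8%.

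**Figure D1:**
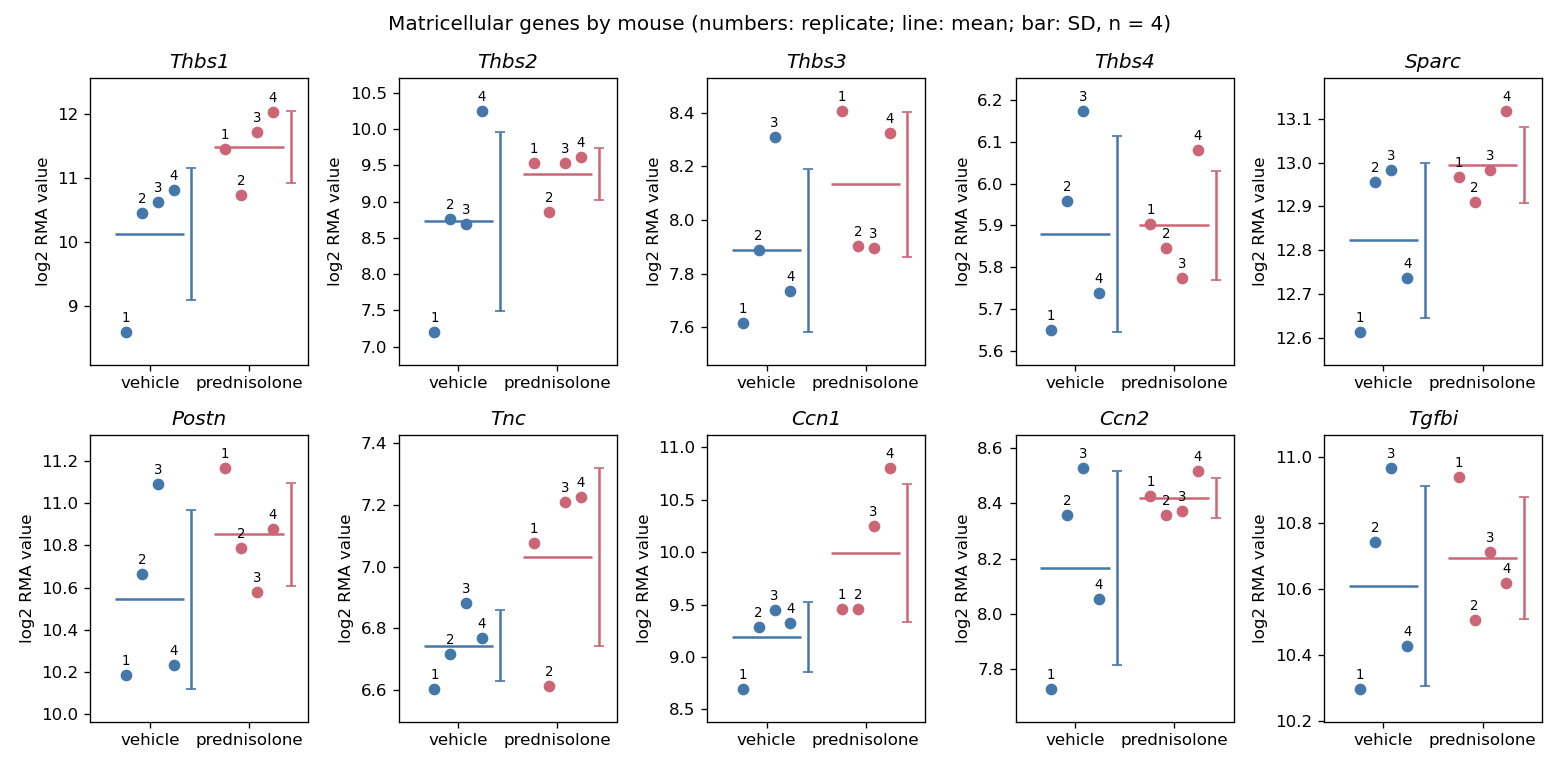
Log2 RMA value (y axis, a separate scale for each gene) of the 10 matricellular genes in 4 vehicle and 4 prednisolone mice. Points are single mice numbered by replicate, horizontal lines are group means and bars to the right are the SD (n = 4); vehicle mouse 1 is the lowest point in every panel, and the groups are apart only in Ccn1, by 0.004, and in no panel after a repeated quantile normalization.

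Promoter windows of 250 bases before to 50 bases after the transcript start were held by RefSeq (GRCm38.p6) for 8 of the 10 members, in 10 windows; Thbs1 and Ccn2 had no entry. The windows shown are those of Ccn1 as the member whose groups were apart, Thbs3 and Postn as a pair whose values followed each other closely, and Sparc as the only one of the 10 windows with a glucocorticoid receptor half-site. Capitals mark matches on either strand to the motifs searched. The TATA box was searched as TATAAA. The motif of TEAD factors was searched as GGAATG. The half-site of the glucocorticoid receptor was searched as AGAACA. The AP-1 motif was searched as TGACTCA, and the Smad motif as CAGAC. The CArG box of serum response factor was searched too, and no motif overlapped another in the windows shown. Each window is written 5′ to 3′ on the strand of its gene.
Ccn1, chr3:145649936-145650235, minus strand: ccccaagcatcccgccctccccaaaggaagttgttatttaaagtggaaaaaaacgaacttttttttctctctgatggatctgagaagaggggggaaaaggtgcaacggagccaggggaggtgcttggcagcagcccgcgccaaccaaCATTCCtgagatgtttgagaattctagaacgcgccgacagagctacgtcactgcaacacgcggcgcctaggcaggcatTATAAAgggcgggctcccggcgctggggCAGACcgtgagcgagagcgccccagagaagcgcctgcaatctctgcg
Thbs3, chr3:89214930-89215229, plus strand: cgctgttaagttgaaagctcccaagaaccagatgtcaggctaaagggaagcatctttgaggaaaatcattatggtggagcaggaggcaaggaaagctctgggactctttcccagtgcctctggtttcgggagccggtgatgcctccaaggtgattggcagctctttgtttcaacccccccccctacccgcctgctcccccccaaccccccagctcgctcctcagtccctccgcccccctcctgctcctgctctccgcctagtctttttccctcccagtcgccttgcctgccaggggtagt
Postn, chr3:54360857-54361156, plus strand, the second of 2 starts: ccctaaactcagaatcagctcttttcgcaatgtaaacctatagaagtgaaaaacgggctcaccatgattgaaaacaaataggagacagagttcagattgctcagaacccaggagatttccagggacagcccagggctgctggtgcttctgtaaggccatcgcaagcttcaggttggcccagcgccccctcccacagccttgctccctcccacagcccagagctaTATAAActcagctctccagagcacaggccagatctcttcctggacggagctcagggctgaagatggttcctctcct
Sparc, chr11:55420031-55420330, minus strand: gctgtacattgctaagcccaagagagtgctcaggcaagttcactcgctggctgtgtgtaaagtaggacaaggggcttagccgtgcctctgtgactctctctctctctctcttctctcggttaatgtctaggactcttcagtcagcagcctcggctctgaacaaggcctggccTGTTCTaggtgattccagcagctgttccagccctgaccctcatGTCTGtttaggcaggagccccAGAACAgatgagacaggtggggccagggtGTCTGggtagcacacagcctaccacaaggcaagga

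In Ccn1 the window held a TEAD motif at -103, a TATA box at -25 and a Smad motif at 4, counted from the first transcribed base as 1. Of 32851 promoter windows of the same length, 14.7% held a TEAD motif, 13.6% a TATA box and 49.6% a Smad motif. The Sparc window held glucocorticoid receptor half-sites at -78 and -14 and Smad motifs at -35 and 16, where 19% of all windows held such a half-site. TEAD motifs were also in the Thbs4 window, at -197 and -192. The Thbs2 window had a TATA match at -126, on the opposite strand. Both Tnc windows overlap and share the same TATA match, at -205 in the first and -126 in the second. Postn had a TATA box at -26, and the Thbs3 window matched none of the motifs. AP-1 motifs, in 5.2% of all windows, and CArG boxes, in 1.63%, were in none of the 10 member windows. These are matches of letters and not measured binding sites.

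Thbs1 had the widest difference of the 10. It encodes thrombospondin 1, a trimeric glycoprotein that platelets, stromal cells and adipocytes can release and that restrains angiogenesis. It read 11.46, 10.73, 11.71 and 12.03 in prednisolone mice 1 to 4, and 8.60, 10.46, 10.63 and 10.80 in vehicle mice 1 to 4. All prednisolone mice but 1 lay above every vehicle mouse, and the exception, prednisolone mouse 2, lay below vehicle mouse 4 alone, so 15 of 16 pairs of mice were ordered the same way. The means were 11.48 ± 0.56 and 10.12 ± 1.02 (SD, n = 4), a difference of 1.36 ± 0.50 (SE), or 2.56-fold, with a 95% confidence interval of 0.22 to 2.50 and a limma adjusted p of 0.768. Much of the vehicle spread came from mouse 1, since the other 3 vehicle mice had an SD of 0.17. Without vehicle mouse 1 the difference was 0.85 ± 0.29 (adjusted p = 0.949).

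Thbs2, the other trimeric thrombospondin, which binds matrix metalloproteinases and shapes collagen fibrils, had both its lowest and its highest value among vehicle mice. Its values were 9.53, 8.85, 9.53 and 9.62 with prednisolone, and 7.21, 8.76, 8.70 and 10.24 with vehicle. Apart from vehicle mouse 4, every vehicle mouse lay below every prednisolone mouse. The difference was 0.66 ± 0.55 (adjusted p = 0.796), within the spread of the vehicle group (SD 1.24). This value rested on single mice: vehicle mouse 1 left out, it was 0.15 ± 0.40, and vehicle mouse 4 left out, 1.16 ± 0.40.

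The pentameric thrombospondins Thbs3 and Thbs4, which lack the type 1 repeats of the trimeric ones and are known from tendon, cartilage and muscle, differed by less. Thbs3 read 8.41, 7.90, 7.90 and 8.33 with prednisolone, and 7.61, 7.89, 8.31 and 7.74 with vehicle. Its groups overlapped, with vehicle mouse 3 near the brightest prednisolone mice, and the difference was 0.25 ± 0.18 (adjusted p = 0.779). It was 0.16 without prednisolone mouse 1 or without vehicle mouse 1, and 0.39 without vehicle mouse 3. Thbs4 was dim, just above the filter's limit of 5.82, and read 5.90, 5.85, 5.77 and 6.08 with prednisolone against 5.65, 5.96, 6.17 and 5.74 with vehicle. Its difference of 0.02 ± 0.13 (adjusted p = 0.971) had a 95% confidence interval from -0.27 to 0.31, and its sign turned when vehicle mouse 1, vehicle mouse 4 or prednisolone mouse 4 was left out.

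Ccn1 was the only member whose groups did not overlap, as was so in this direction for 1.81% of all tested genes. It encodes CYR61, a secreted integrin ligand made rapidly after serum, growth factors or mechanical strain. Prednisolone mice read 9.46, 9.46, 10.25 and 10.80, and vehicle mice 8.70, 9.29, 9.45 and 9.32. Prednisolone mice 1 and 2 lay level with vehicle mouse 3, the gap between the groups being 0.004, while prednisolone mice 3 and 4 stood clear of it. After a repeated quantile normalization the groups overlapped. The difference was 0.80 ± 0.32, or 1.74-fold (95% confidence interval 0.07 to 1.53, adjusted p = 0.768), and 0.53 ± 0.26 without prednisolone mouse 4. 

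Ccn2, also called connective tissue growth factor, is a related secreted protein that accompanies fibrosis. It read 8.43, 8.36, 8.37 and 8.52 with prednisolone, and 7.73, 8.36, 8.53 and 8.05 with vehicle. Vehicle mouse 3 lay just above the prednisolone range and vehicle mouse 2 level with its lower end, while vehicle mice 1 and 4 lay well below it. The difference was 0.25 ± 0.16 (adjusted p = 0.768), and 0.11 without vehicle mouse 1. Its second, dimmer probe set averaged 5.49 over the arrays, with a difference of 0.25. Whether Ccn1 and Ccn2 differed from each other in their response was not tested.

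Tnc, Sparc, Postn and Tgfbi completed the list. Tnc encodes tenascin C, a large multi-armed glycoprotein that appears where tissue is injured or remodelled. It read 7.08, 6.61, 7.21 and 7.22 with prednisolone, and 6.61, 6.72, 6.88 and 6.77 with vehicle. As for Thbs1, 3 prednisolone mice lay above every vehicle mouse and mouse 2 did not, and the difference of 0.29 ± 0.14 (adjusted p = 0.768) was 0.43 ± 0.09 without prednisolone mouse 2.

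Sparc encodes osteonectin, a collagen-binding protein that loosens cell adhesion. It read 12.97, 12.91, 12.98 and 13.12 with prednisolone, and 12.61, 12.96, 12.98 and 12.74 with vehicle. Vehicle mice 2 and 3 matched the prednisolone mice and vehicle mice 1 and 4 lay lower. The difference was 0.17 ± 0.10 (adjusted p = 0.768), and 0.10 without vehicle mouse 1.

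Postn and Tgfbi encode periostin and the TGF-beta-induced protein, related adhesion proteins built from fasciclin domains. Postn read 11.17, 10.79, 10.58 and 10.88 with prednisolone against 10.19, 10.66, 11.09 and 10.23 with vehicle, a difference of 0.31 ± 0.22 (adjusted p = 0.773). Tgfbi read 10.94, 10.51, 10.71 and 10.62 with prednisolone against 10.30, 10.74, 10.97 and 10.43 with vehicle, a difference of 0.08 ± 0.16 (adjusted p = 0.904). In both genes vehicle mouse 3 and prednisolone mouse 1 were the brightest, and vehicle mice 1 and 4 the dimmest. Postn ranged from 0.19 without vehicle mouse 1 to 0.49 without vehicle mouse 3, and Tgfbi from -0.02 to 0.20 without the same mice.

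**Figure D2:**
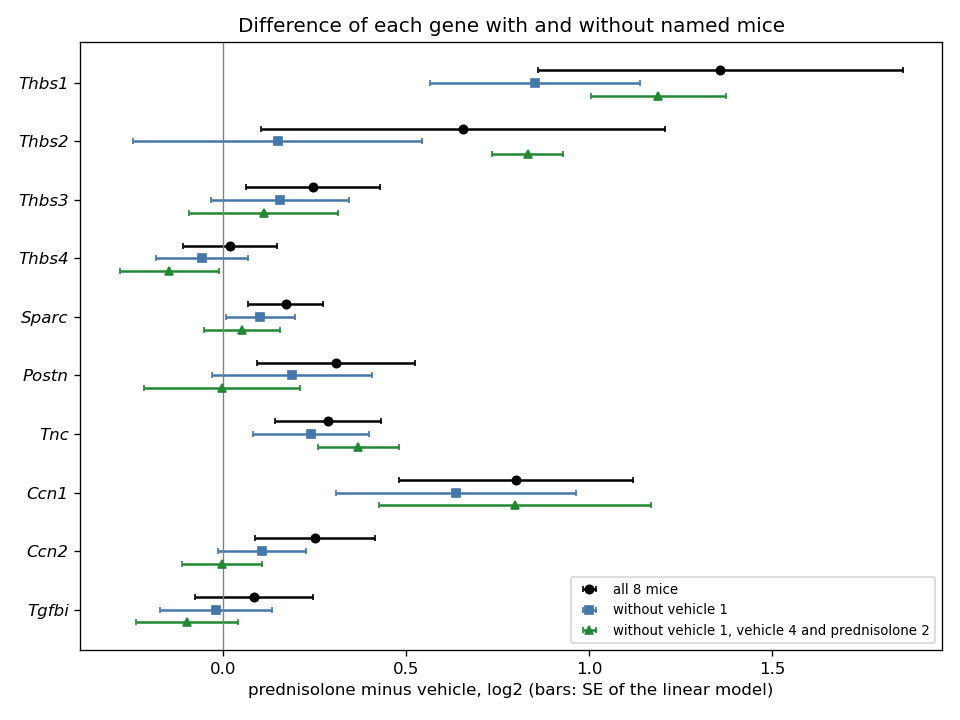
Prednisolone minus vehicle difference on the log2 scale (x axis) of each matricellular gene (y axis), with the SE of the linear model as bars. Black circles use all 8 mice, blue squares leave out vehicle mouse 1, and green triangles leave out vehicle mice 1 and 4 and prednisolone mouse 2; Thbs1 stays at 0.85 or above in the 3 fits, while Thbs2 moves between 0.15 and 0.83.

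Transcripts of the epididymis, the sperm duct beside this depot, differed widely between the mice. A score was taken as the average deviation of 14 tested epididymis and testis markers from their means over all arrays. Vehicle mouse 1 scored 2.78, prednisolone mouse 2 scored 2.11 and vehicle mouse 4 scored 1.66. The other vehicle mice scored -2.23 (mouse 2) and -0.93 (mouse 3), and the other prednisolone mice 0.09 (mouse 1), -1.48 (mouse 3) and -1.99 (mouse 4). Vehicle mouse 1 had the highest reading of 5 of the 14 markers, prednisolone mouse 2 of another 5, and prednisolone mouse 3 of the remaining 4. The duct gene Gpx5 stood at 13.78 (vehicle mouse 1), 13.81 (prednisolone mouse 2) and 13.60 (vehicle mouse 4). Tnp2, a spermatid gene, read 8.80, 5.35 and 7.43 in those mice and 8.95 in prednisolone mouse 3, so the score mixes duct and sperm genes that did not go together. Lcn5, an epididymal lipocalin, spanned 6.53 (vehicle mouse 2) to 13.82 (vehicle mouse 1), while Odf1, a sperm tail gene, stayed between 12.57 and 12.92. Within that narrow range the groups were apart in Odf1 alone of the 14 markers, higher with prednisolone. That was so in this direction for 1.81% of all tested genes. Prednisolone mouse 2, with the highest score of its group, was the lowest prednisolone mouse for Thbs1, Thbs2, Tnc, Sparc, Ccn2 and Tgfbi. Of these genes, vehicle mouse 4 was the highest vehicle mouse for Thbs1 and Thbs2. It was next to lowest of all mice for Sparc, Ccn2 and Tgfbi, and between the other vehicle mice for Tnc.

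Without the 3 mice whose epididymis score was over 1, 3 prednisolone and 2 vehicle mice are left. Among them are prednisolone mouse 1, where Gpx5 read 11.3, and vehicle mouse 3, where it read 8.69, so duct transcripts remained. In this comparison 6 of 10 members averaged higher and 4 lower. The groups were then apart in 4 members, Thbs1, Thbs2, Tnc and Ccn1, where 10.5% of all tested genes were apart upwards with so few mice. Thbs1 differed by 1.19 ± 0.18, Thbs2 by 0.83 ± 0.10, Ccn1 by 0.80 ± 0.37 and Tnc by 0.37 ± 0.11, each with a limma adjusted p of 0.957. The other 6 members differed by -0.15 (Thbs4) to 0.11 (Thbs3), with Sparc at 0.05 and Postn, Ccn2 and Tgfbi below 0. With the score as a covariate over all 8 mice, Thbs1 differed by 1.18 ± 0.37 and Ccn1 by 0.68 ± 0.23 (adjusted p = 0.663 for each).

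**Figure D3:**
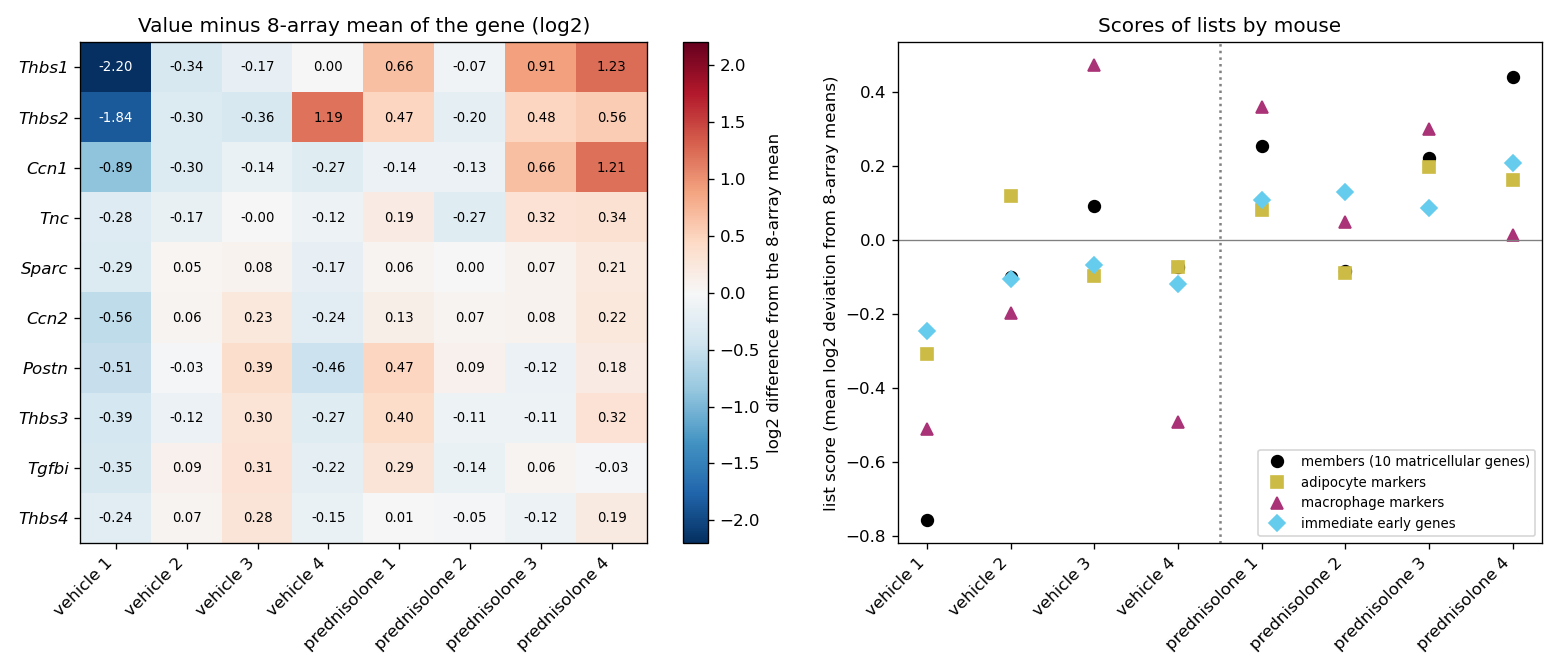
Left, each gene's value minus its 8-array mean (log2, colour and printed number) by mouse; right, scores of the matricellular genes, of adipocyte and macrophage markers and of immediate early genes, each the mean log2 deviation of the list's tested genes (y axis) by mouse. Vehicle mouse 1 is lowest for the matricellular genes (-0.76), and prednisolone mouse 4 is highest (0.44).

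The tissue showed the markers of white fat in every mouse. Fabp4 and Retn, an adipocyte fatty acid carrier and an adipocyte hormone, averaged 13.91 and 13.83 over the arrays. Of 11 tested adipocyte markers, 10 averaged higher and 1 lower with prednisolone, with a median difference of 0.15. The adipocyte score ran from -0.09 to 0.20 in prednisolone mice and from -0.31 to 0.12 in vehicle mice. Vehicle mouse 1 again had the lowest score and was lowest for 9 of 11 markers. Markers of other cell types that could carry matricellular transcripts were read beside it.

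Macrophage markers were higher on average with prednisolone for 13 of 14 tested genes, with scores from 0.01 to 0.36 in prednisolone mice and from -0.51 to 0.47 in vehicle mice. Their median difference was 0.27, as large as that of the matricellular genes. At a limma unadjusted p under 0.05, 3 of the 14 were higher, where 3.37% of all tested genes were. Gpnmb stood at 1.07 ± 0.36, Trem2 at 0.72 ± 0.27 and Lgals3 at 0.63 ± 0.21 (adjusted p = 0.768 for each). The groups were apart in Lgals3 alone of the 14, as was so in this direction for 1.81% of all tested genes. Cd68 and Lyz2 differed by 0.60 ± 0.37 and 0.25 ± 0.27. Vehicle mouse 3 had the highest macrophage score and was also brightest for Thbs4, Ccn2 and Tgfbi. It also had the highest fibroblast and progenitor, platelet and mesothelial scores, at 0.28, 0.43 and 0.83. Stromal markers ran from -0.14 to 0.12 and from -0.18 to 0.28, with Dcn and Cd34, markers of fibroblasts and progenitors, at -0.07 ± 0.11 and 0.01 ± 0.27.

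Platelets store thrombospondin 1, and 5 of 10 platelet and megakaryocyte markers were tested, 4 of them higher and 1 lower. Their score ran from -0.14 to 0.33 with prednisolone and from -0.38 to 0.43 with vehicle. Pf4, platelet factor 4, was highest in vehicle mouse 3 at 10.09, where Thbs1 read 10.63, and Treml1 differed by 0.03 ± 0.14. Erythroid cells were represented by Slc4a1 alone, at -0.09 ± 0.17, with a score from -0.25 to 0.22 and from -0.35 to 0.31.

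Lining, vessel and muscle scores overlapped between the groups. Of 10 tested markers in each list, 6 mesothelial, 1 endothelial and 3 smooth muscle and pericyte markers averaged higher with prednisolone. The rest averaged lower, where 54.6% of all tested genes averaged higher. The median differences of these lists were 0.01, -0.18 and -0.17. The mesothelial score ran from -0.16 to 0.21 with prednisolone and from -0.79 to 0.83 with vehicle, with Upk3b at 0.13 ± 0.64 and Upk1b at 0.47 ± 0.52. Endothelial scores ran from -0.48 to 0.43 and from -0.49 to 0.36, with Pecam1 at -0.18 ± 0.25 and Cdh5 at -0.08 ± 0.22. Smooth muscle and pericyte scores ran from -0.19 to 0.11 and from -0.08 to 0.25, with Acta2 at 0.36 ± 0.22 and Rgs5 at -0.29 ± 0.21.

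Skeletal muscle scores ran from -0.03 to 0.29 and from -0.19 to 0.01, with Acta1 at 0.99 ± 0.39 and Des at -0.18 ± 0.14. Of 7 tested skeletal muscle markers, 6 averaged higher and 1 lower with prednisolone, with a median difference of 0.08. Acta1 was highest in prednisolone mouse 4 at 9.98, the mouse that was also highest for Thbs1, Ccn1, Tnc and Sparc. In that mouse Mb, Ckm and Pvalb also lay above their 8-array means, while Tnnt3 and Tnni2 lay below theirs. Des, which is also in the smooth muscle and pericyte list, read 7.56 there, below its 8-array mean of 7.73. Nerve scores ran from -0.16 to 0.00 and from -0.08 to 0.29, with Pmp22 at 0.10 ± 0.14 and Ncam1 at -1.03 ± 0.58, highest in vehicle mice 1 and 4. The part of any of these cell types in the matricellular differences was not tested.

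The members moved together to different degrees from mouse to mouse. All 45 pairs of members had a positive Pearson r over the 8 arrays, from 0.18 for Thbs2 with Thbs4 to 0.96 for Sparc with Ccn2, and all 45 stayed positive after each group's mean was subtracted. Among all pairs of tested genes, 50.9% were positive either way. The median r of the members' pairs was 0.70, which 5.76% of all gene pairs exceeded, and 0.57 after the group means were subtracted, which 13.2% exceeded. The arrays are shared by all pairs, and vehicle mouse 1 is low in each gene. With exact permutation p-values adjusted over the 45 pairs, 12 pairs passed 0.05 by Pearson and 0 by Spearman, where the lowest adjusted p was 0.0502. These permutations exchange all 8 mice and do not keep the treatment groups apart.

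The tightest pairs lay outside the thrombospondin 1 and 2 genes. Sparc and Ccn2 had r = 0.96 and rho = 0.93 (exact permutation p = 0.000967 and 0.00223), and r = 0.95 within groups and 0.71 without the 2 mice farthest from the Sparc median. Thbs3 and Postn had r = 0.93 and rho = 0.95 (exact permutation p = 0.000645 and 0.00114), with 0.92 within groups and 0.94 without the 2 farthest mice.

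The relations of Thbs1 held to unequal degrees when the extreme mice were left out. With Ccn1 it had r = 0.86 and rho = 0.88 (exact permutation p = 0.00657 and 0.00724), which was 0.75 within groups and 0.78 without the 2 mice farthest from the Thbs1 median. With Tnc it had r = 0.82 and rho = 0.88 (exact permutation p = 0.00263 and 0.00724), 0.69 within groups and 0.89 without those 2 mice. With Thbs2, r = 0.84 and rho = 0.83 (exact permutation p = 0.0161 and 0.0154), with 0.86 within groups and 0.47 without those 2 mice. With Sparc, r = 0.84 and rho = 0.62 (exact permutation p = 0.0107 and 0.115), with 0.74 within groups and 0.26 without those 2 mice. With Ccn2, r = 0.81 and rho = 0.52 (exact permutation p = 0.031 and 0.197), with 0.74 within groups and 0.09 without them. In each of these pairs r was thus much lower without those mice, which the values within groups still include. The adjusted p-values by Pearson were 0.0208 for Sparc with Ccn2, Thbs3 with Postn and Thbs1 with Tnc, 0.0412 for Thbs1 with Ccn1, 0.0424 for Thbs1 with Sparc, 0.0529 for Thbs1 with Thbs2, and 0.0696 for Thbs1 with Ccn2. By Spearman they were 0.0502 for Sparc with Ccn2 and for Thbs3 with Postn, 0.0652 for Thbs1 with Tnc and with Ccn1, 0.0769 for Thbs1 with Thbs2, 0.192 for Thbs1 with Sparc, and 0.295 for Thbs1 with Ccn2.

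**Figure D4:**
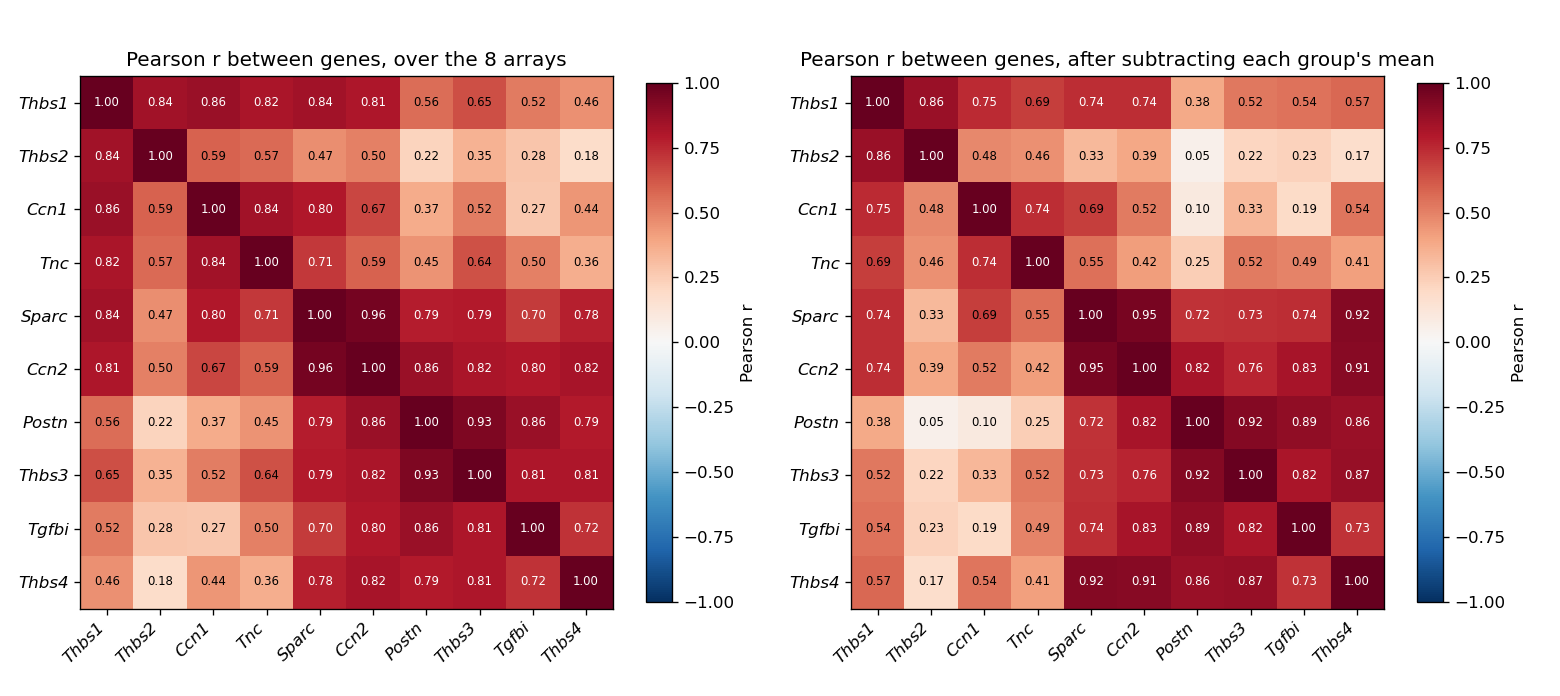
Pearson r between the matricellular genes over 8 arrays (left) and after subtraction of each group's mean (right), as colour and printed number, with genes ordered by eye after their values were seen. Thbs1, Thbs2, Ccn1 and Tnc correlate less with Postn, Thbs3, Tgfbi and Thbs4, from 0.18 to 0.65 at left, than those last 4 do with one another.

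Genes around the members were read from lists of other family members, receptors, the TGF-beta pathway and known response genes. Among 13 tested genes of the same families, 9 averaged higher and 4 lower with prednisolone, 0 passed an adjusted p of 0.05 or an unadjusted p of 0.05, and their median difference was 0.12. Ccn3, also called NOV, averaged 7.71 against 7.19 (0.52 ± 0.25), Ccn5, a CCN protein without the last domain of the family, 8.47 against 7.99 (0.48 ± 0.29), and Spock1, a testican proteoglycan, 6.30 against 7.08 (-0.78 ± 0.48), each with an adjusted p of 0.768. Spock1 read 8.34 and 7.66 in vehicle mice 1 and 4 and at most 6.64 in every other mouse. Among the 3 mice with an epididymis score over 1, Spock1 was thus high in the vehicle pair and 6.64 in prednisolone mouse 2. The SPARC relative Sparcl1 stood at -0.27 ± 0.21 and the cartilage thrombospondin Comp at -0.06 ± 0.13.

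Of 15 receptors and coreceptors for these proteins, 10 averaged higher and 5 lower, with 0 past either threshold and a median of 0.08. Itgb3, the integrin beta 3 chain, averaged 7.44 against 7.01 (0.43 ± 0.21) and Itgb1, the beta 1 chain, 11.21 against 10.97 (0.25 ± 0.13). Cacna2d1, a calcium channel subunit that binds thrombospondins, averaged 7.06 against 7.73 (-0.67 ± 0.35) and, like Spock1, was highest in vehicle mice 1 and 4. The main thrombospondin receptors Cd36 and Cd47 differed by 0.10 ± 0.10 and 0.00 ± 0.09. The receptor median was -0.04 without vehicle mouse 1 and -0.01 without vehicle mouse 4, so its direction depended on either mouse.

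TGF-beta ligands, latent binding proteins, receptors and Smads showed 12 of 20 higher and 8 lower, 0 past either threshold, and a median of 0.01, which was -0.03 without the 3 mice with an epididymis score over 1. The ligand Tgfb3 stood at 0.26 ± 0.15, the ligand Tgfb2 at -0.34 ± 0.21 and the decoy receptor Bambi at -0.14 ± 0.08. Known response genes of TGF-beta in fibroblasts showed 10 of 14 higher and 4 lower, 0 past either threshold, and a median of 0.10. Among them the collagen cross-linking enzyme Lox averaged 10.41 against 9.71 (0.70 ± 0.34), Acta2 11.60 against 11.24, and Junb 8.13 against 7.94 (0.20 ± 0.09), while Col1a1 stood at 0.08 ± 0.33 and Col3a1 at -0.13 ± 0.35. Leaving out vehicle mouse 1 gave a response gene median of 0.02, leaving out vehicle mouse 3 gave 0.26, and leaving out the 3 mice with an epididymis score over 1 gave -0.08.

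YAP and TEAD target genes other than Ccn1 and Ccn2 showed 11 of 18 higher and 7 lower, 0 past either threshold, and a median of 0.12. Ankrd1, a sarcomeric and nuclear ankyrin protein, stood at 0.19 ± 0.09, the coagulation initiator F3 at 0.43 ± 0.22 and the kinase Nuak2 at 0.21 ± 0.12. Without vehicle mouse 4 the median was 0.04, and 0.02 without the 3 mice with an epididymis score over 1. Immediate early genes, to which Ccn1 is often counted, showed 18 of 19 higher and 1 lower, with a median of 0.21. At a limma unadjusted p under 0.05, 4 were up and 1 down, where 498 and 344 of the 14787 tested genes were. No member of the list had an adjusted p under 0.05. Atf3, Fos and Egr1 stood at 0.44 ± 0.09, 0.97 ± 0.22 and 0.72 ± 0.17 (adjusted p = 0.768 for each). Scores of the immediate early list ran from 0.09 to 0.21 in prednisolone mice and from -0.25 to -0.07 in vehicle mice. The list's median difference lay between 0.19 and 0.30 when any 1 mouse was left out. Ccn1 was below its 8-array mean in prednisolone mice 1 and 2, where the immediate early scores were 0.11 and 0.13.

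**Figure D5:**
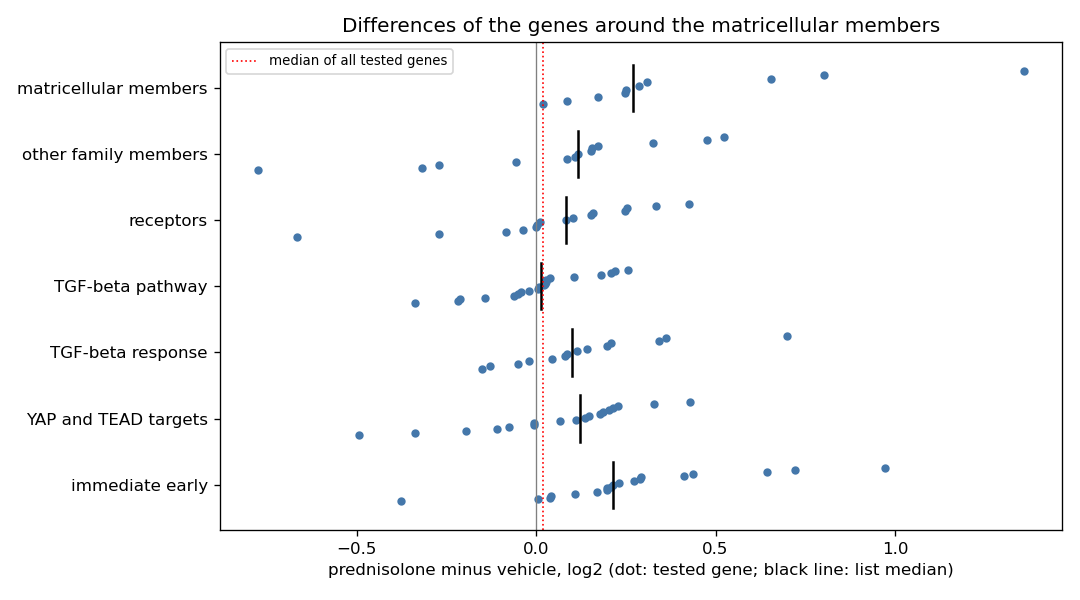
Prednisolone minus vehicle difference on the log2 scale (x axis) of each tested gene (dots) in the matricellular list and 6 related lists (y axis), with list medians as black lines and the median of all tested genes (0.02) as a red dotted line. The medians are 0.27 for the matricellular genes and 0.21 for the immediate early genes, and between 0.01 and 0.12 for the other lists shown; macrophage markers, not plotted, had a median of 0.27.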

How the data were processed

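Total RNA (100 ng per sample) from 8 fat pads was hybridised to Affymetrix Mouse Gene 2.0 ST arrays, 1 per mouse, and the labels call the replicates biological. The deposited values are log2 expression from RMA (background correction, quantile normalization, probe set summary) in Affymetrix Expression Console, per the labels and the submitters' processing notes, which also name Partek 6.6 without a role. RMA removes shifts common to an array and compresses low and very high signal. Array medians lay between 6.09 and 6.13, and no arrays held identical values. The number of arrays limits precision, and the array's annotation version and build were not given in the sources used here.

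Of 41345 probe sets, 23521 had 1 gene symbol in GEO's platform table, 1814 several and 16010 none; the last 2 kinds were not used. Of each gene the brightest probe set was kept, and the dimmest 33.3% of 22180 genes (log2 mean under 5.82) were left out. Groups were compared in limma 3.58.1 (R 4.3.3; lmFit, eBayes defaults, no covariate) over 14787 genes, with Benjamini-Hochberg adjustment over all of them and a threshold of 0.05. The fit was tested on simulated data. Errors of differences are standard errors of that model (n = 4 per group). List scores are means over tested genes of each value minus its 8-array mean.

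The members, the gene lists and the alternatives were chosen with earlier results of these data known. Named genes are the 10 members, the 3 lowest unadjusted p in each related list and the 2 brightest in each marker list. The gene most like each member is named too. Sparcl1, Comp, Cd36, Cd47, Col1a1, Col3a1, Gpx5, Tnp2, Gpnmb, Trem2, Lgals3, Mb, Ckm, Pvalb, Tnnt3 and Tnni2 were added after their values were seen. Permutation p-values of pair correlations enumerate all orders of 8 arrays; they were added after the design was set. Alternatives changed the dim filter, normalization, probe set choice, variance model, array weights, replicate block, epididymis covariate and mice. Same-numbered mice did not deviate together: the correlations of their deviations from group means were -0.19, -0.58, 0.13 and -0.28, so the numbers were not taken as pairs. Figures used matplotlib 3.10.9.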

Additional observations from a re-analysis of the deposited data

Results flagged for a closer look

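In 32 groups of 4 mice (10 matricellular genes and 6 list scores, in 2 treatments), the gap of the highest or lowest mouse to its neighbour was set against Dixon's 95% critical value, which chance passes in about 5% of groups, and 3 groups passed. Thbs1 read 8.60 in vehicle mouse 1, while the other vehicle mice lay between 10.46 and 10.80. Thbs2 read 8.85 in prednisolone mouse 2, while the other prednisolone mice lay between 9.53 and 9.62. Both mice had an epididymis score over 2, at 2.78 and 2.11. Vehicle mouse 4, which scored 1.66, was the highest vehicle mouse for Thbs1 at 10.80 and for Thbs2 at 10.24. The part of the epididymis score in the low readings was not tested. The score of the TGF-beta pathway list was 0.083 in vehicle mouse 3, above -0.04 to -0.02 in the other vehicle mice.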

How the results depend on the processing

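With limma, 0 genes and 0 members passed the adjusted threshold under each of the 17 alternatives. Of the member differences under these alternatives, 159 kept their direction and their side of the threshold and 10 turned sign, in Thbs4, Postn, Ccn2 and Tgfbi. Thbs4 was -0.0056 after a repeated quantile normalization, -0.019 with the epididymis score as a covariate and -0.15 without the 3 mice with a score over 1, where Postn was -0.0033, Ccn2 -0.0025 and Tgfbi -0.098. Leaving out 1 mouse at a time moved Thbs4 between -0.056 and 0.12 and Tgfbi between -0.018 and 0.20; the cause was not tested. Thbs1 lay between 0.85 and 1.61 in those fits, with adjusted p from 0.455 to 0.979. At a limma unadjusted p under 0.05, 498 genes were higher, or 3.37% of all tested genes. With array quality weights 1061 genes were higher (7.18%), among them 6 members but not Ccn1. Without the 3 mice 302 genes were higher (2.04%), among them Thbs1, Thbs2 and Tnc. The count was 266 to 861 without 1 mouse. With the replicate number as a block it was 292, and Thbs1 stood at 1.36 (adjusted p = 0.937). That block was not taken as a pairing. Thbs4 was not tested when the dimmest 50% were left out.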

Other observations

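For each member, the gene with the most similar profile over the 8 arrays was sought among 13496 tested genes with names other than predicted genes. These are the highest of many correlations over 8 shared arrays and are given as a description with no test. Thbs1 was nearest to Sirt3, a mitochondrial deacetylase (r = 0.99, rho = 0.81, and r = 0.93 without the 2 mice farthest from the Thbs1 median). Thbs2 was nearest to the potassium channel gene Kcna6 (r = 0.98, rho = 0.90), Thbs3 to Tmem86a (r = 0.96, rho = 0.93) and Thbs4 to Myh9, a non-muscle myosin heavy chain (r = 0.97, rho = 0.93).

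Sparc was nearest to the septin Septin8 (r = 0.99, rho = 0.98), Postn to Cyth4, an exchange factor of leukocytes (r = 0.98, rho = 0.98), and Tgfbi to Sap30, a histone deacetylase complex subunit (r = 0.98, rho = 0.98). Tnc and Rnf19b, a ubiquitin ligase, ranked the 8 mice in the same order (r = 0.98, rho = 1). Ccn1 was nearest to Stim1, a calcium sensor (r = 0.97, rho = 0.55), with r = 0.91 without the 2 mice farthest from the Ccn1 median. Ccn2 was nearest to Pcbp4 (r = 0.98, rho = 0.95), with r = 0.85 without the 2 farthest mice.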
